A study of Danio rerio with 6 samples.

Results

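The transcriptome of the normal larval zebrafish gut was described from the 3 wild-type (WT) libraries of a bulk RNA-seq experiment of 6 libraries. Its members were the genes chosen by their measured counts, at least 10 in each of the 3 WT libraries, which selected 10813 of the 15419 genes listed in the count table, or 70.13%. The counts that chose the members are given as a description and carry no test. Guts were dissected at 5 days post-fertilization (dpf), and each library pooled 10 to 15 guts, so that each is called a pool here. The WT larvae were AB fish, offspring of adults that were clutchmates of the il26KO parents but were kept in separate tanks. The other 3 libraries came from guts of the same age that carried a CRISPR/Cas9 loss of il26 (il26KO), and they serve here only to show how much the same genes vary among another 3 pools. The labels call the WT pools biological replicates and do not say whether they came from separate clutches or days. All larvae lived in E3 water without food, since feeding in the facility began after this age.

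A gut dissected at this age is more than intestine. The intestinal tube is a single layer of epithelium, mostly enterocytes that digest and absorb, with goblet cells that secrete mucus and enteroendocrine cells that secrete hormones, and it is wrapped in smooth muscle and enteric neurons. The liver, which makes plasma proteins and lipoproteins, and the pancreas, whose acinar cells make digestive enzymes and whose islets make hormones, bud from the same tube and lie against it. Anterior enterocytes absorb lipid and package it with apolipoprotein B, while the lysosome-rich enterocytes of the posterior midgut take up protein whole and degrade it.

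The WT pools held 25260779, 27225697 and 23247771 counts in pools 1, 2 and 3. Members took between 99.95% and 99.96% of the counts of each pool. Another 2460 genes had some counts but did not reach the limit, and 2146 genes were listed at 0 in all 3 pools. The limit of 10 counts fell inside a continuous range, since the lowest pool held exactly 10 counts for 75 genes and exactly 9 for another 75. Among members with exactly 10, the lowest totals were those of ak5, with 10, 11 and 11 counts in pools 1, 2 and 3, and ankrd1b, with 12, 10 and 10. Just outside, zgc:171435 had 41, 37 and 9 counts and s100b had 9, 51 and 15. The gene targeted in the other libraries, il26, had 0 counts in every pool. If counting lost no reads, this allows up to 3 counts, or 0.11 to 0.13 counts for each 1000000 of the library (CPM), in a pool of this depth. The paper detected il26 by RT-PCR in dissected WT guts of this age, so its 0 was not read as absence.

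Expression was concentrated in few genes. The levels below are CPM on libraries scaled by TMM, and they follow transcript length as well as abundance, because the lengths of the counted transcripts were not used here. Ranks are thus ranks of counts taken, not of transcripts made. The highest 10 genes took 15.9%, 15.7% and 16% of the counts in pools 1, 2 and 3, and the highest 100 genes took 46.4%, 44.8% and 45.9%. It took 125, 137 and 129 genes to hold 50% of the counts. The median member, by contrast, averaged 13.2 CPM, with the middle 50% of members between 4.14 and 38.8 CPM, and 167 members averaged 1000 CPM or more.

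The highest genes named the main tasks of the organ. apobb.1, an apolipoprotein B that carries absorbed lipid, ranked first in every pool, with 28185, 25649 and 23662 CPM in pools 1, 2 and 3. chia.2, a chitinase, had 20849, 18800 and 17390 CPM, and eef1a1l1, an elongation factor of translation, had 20467, 18827 and 18101 CPM. All 3 of these genes lay lowest in pool 3 and within 1.2-fold over the pools. apoa1b, an apolipoprotein A-I of high-density lipoprotein, was the exception among the highest genes, with 9818 CPM in pool 1 against 20904 and 19211 CPM in pools 2 and 3, and so ranked 14th in pool 1 and 2nd in the others. apoa2, a partner of apoa1b in the same particle, split the pools in the same way, with 4100 CPM in pool 1 against 8832 and 8040 CPM. Most others of the highest 30 differed little over the pools: actb2, a cytoplasmic actin, had 13620, 12603 and 12964 CPM, and ucp1, a mitochondrial uncoupling protein, had 13196, 12273 and 12743 CPM. Digestive enzymes of the exocrine pancreas filled 5 of the 13 places after apobb.1, led by the trypsins prss59.2 and prss1, the elastase cela1.6 and the carboxypeptidase cpa5.

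**Figure D1:**
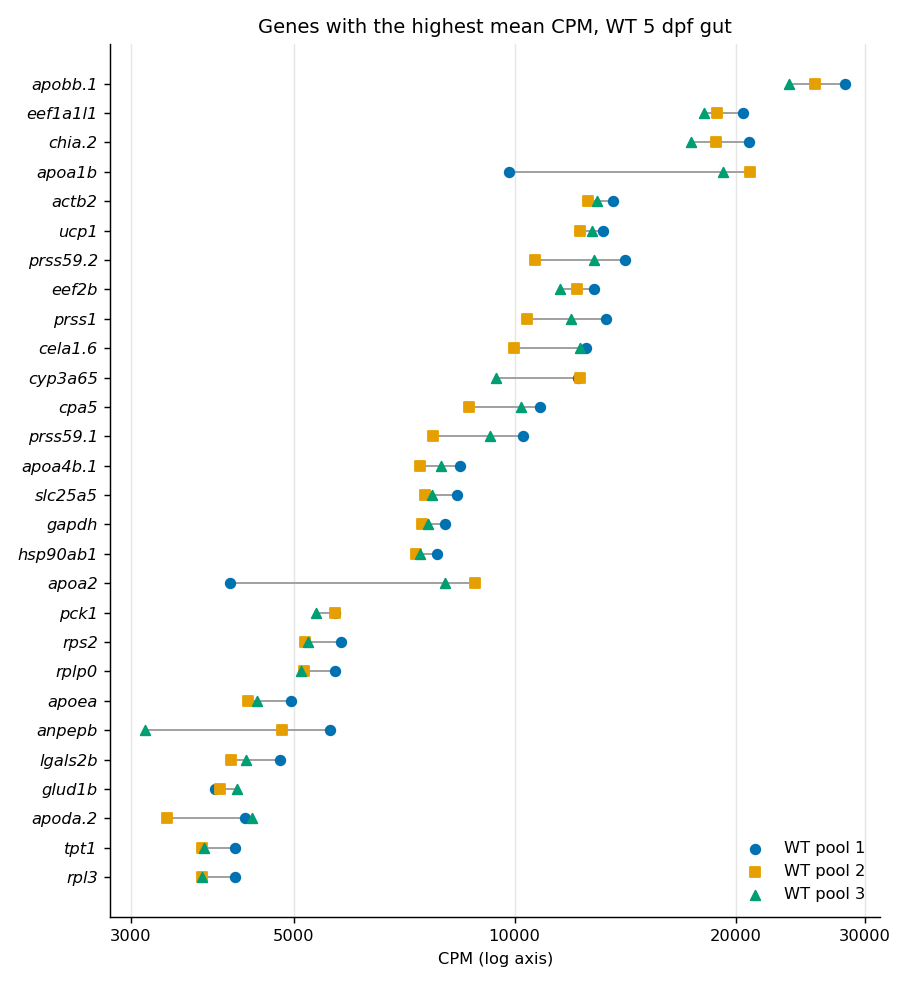
CPM (log axis) of 28 of the 30 genes with the highest mean over the WT pools, with 1 point per pool and a line joining the lowest to the highest pool. Most genes lie close together, whereas apoa1b and apoa2 are lower in pool 1 than in the other pools and anpepb is lower in pool 3, at 3144 CPM.

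Assigning members to function classes by gene symbol placed 2879 of the 10813 in 1 of 36 classes that had members. These genes took the larger part of the counts, since genes outside every class took 29.3%, 29.6% and 29.3% in pools 1, 2 and 3. Among the 100 highest genes, 88 fell in a class. The largest class was the cytosolic ribosomal proteins, with 75 members and 11.7%, 10.9% and 11.3% of counts, and 24 of the 100 highest genes were ribosomal. Elongation and initiation factors added 5.41%, 5.13% and 5.16%. Of the 72 ribosomal protein genes with a mean of at least 10 CPM, 0 reached a highest over lowest pool of 1.5, against 8.13% of all 6138 such members. The same count was 0 of 76 for the nuclear-encoded respiratory chain, 0 of 121 for RNA processing, 0 of 87 for the proteasome, 0 of 62 for histones and chromatin and 0 of 96 for ribosome biogenesis, while 3 of 61 elongation and initiation factors reached it. Smaller shifts lay below this limit. Of the 72 ribosomal protein genes, 71 were highest in pool 1. Of the 76 respiratory chain genes, 69 were highest in pool 1 and 69 lowest in pool 3. These were also the most frequent positions among the 4154 genes at this level outside every class. Of those, 1618 were highest in pool 1 and 1706 lowest in pool 3. The median ratio of the respiratory chain genes was 1.19, against 1.15 over all 6138.

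Lipid transport formed the second class by its mean share, although the exocrine pancreas took more in pool 1. The 17 apolipoprotein and lipoprotein assembly genes took 7.42%, 8.69% and 8.46% of counts in pools 1, 2 and 3. Their order over the pools differed. apobb.1, apoa4b.1 (8427, 7436 and 7936 CPM), apoa1a (2948, 2981 and 2686 CPM) and mttp, which loads lipid onto apolipoprotein B (378, 368 and 324 CPM), were level or slightly higher in pool 1. apoa1b, apoa2 and apom, a carrier of lipids in plasma (192, 370 and 355 CPM), were lower in pool 1. apoda.2 was lowest in pool 2, at 4294, 3366 and 4386 CPM, and apoa4a was lowest in pool 3, at 121, 112 and 58.4 CPM. Of the 16 genes of the class with a mean of at least 10 CPM, 4 were lowest in pool 1, 3 in pool 2 and 9 in pool 3. Of all such members, 31.2% were lowest in pool 1, 26.1% in pool 2 and the rest, the largest share, in pool 3. The ratio of apoa1b to its paralog apoa1a within a library was thus 3.33 in pool 1 and 7.01 and 7.15 in pools 2 and 3. Genes of fatty acid binding, uptake and storage took a further 1.46%, 1.47% and 1.28%, led by fabp1b.1, a fatty acid binding protein, at 3225, 2957 and 2351 CPM, and the bile salt binding protein fabp6, at 2633, 2110 and 1878 CPM. dgat2 and mogat2, which rebuild triglyceride from absorbed lipid, had 1025, 922 and 946 CPM and 414, 375 and 286 CPM.

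Digestion was divided between the pancreas and the brush border, the microvillus surface of enterocytes. The 26 exocrine pancreas genes took 8.14%, 6.47% and 7.91% of counts in pools 1, 2 and 3, lowest in pool 2. They covered protein (trypsins, chymotrypsin ctrl, elastases and carboxypeptidases), starch (amy2a, an amylase, at 3614, 2833 and 3511 CPM) and fat (cel.1, a bile salt-activated lipase, at 2155, 1640 and 1764 CPM). The 17 brush border genes took 1.79%, 1.65% and 1.31%, lowest in pool 3. anpepb, an aminopeptidase, had 5598, 4829 and 3144 CPM. vil1, which bundles the actin of microvilli, had 3134, 3142 and 2329 CPM. Among the uptake genes, slc15a1b, the peptide transporter, had 2895, 2668 and 2316 CPM, slc5a1, a sodium-coupled glucose transporter, had 994, 894 and 850 CPM, and slc6a19b, an amino acid transporter, had 944, 735 and 797 CPM. The pancreatic enzymes were thus lowest in pool 2 and the brush border in pool 3. Pool 3 was also the lowest pool for the largest share of all members averaging at least 10 CPM.

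Metabolic and defence genes followed. Glycolysis, gluconeogenesis and sugar metabolism took 3.87%, 4.0% and 4.15% of counts in pools 1, 2 and 3, and pck1, which commits carbon to glucose synthesis, had 5687, 5692 and 5373 CPM. Enzymes of xenobiotic and steroid handling took 3.52%, 3.80% and 3.09%, led by cyp3a65, a cytochrome P450, at 12209, 12269 and 9437 CPM and the efflux pump abcg2a at 2719, 2390 and 2150 CPM. Chitinases, lectins and mucosal defence genes took 3.03%, 2.78% and 2.67%, nearly all of it in chia.2, lgals2b (a galectin, 4791, 4105 and 4307 CPM) and chia.1. Amino acid and one-carbon metabolism took 2.39%, 2.65% and 2.64%, with glud1b (glutamate dehydrogenase) at 3914, 3965 and 4190 CPM and gamt (creatine synthesis) at 2412, 2406 and 2500 CPM. The respiratory chain encoded in the nucleus took 1.91%, 1.83% and 1.76%. The table listed 0 genes under the symbols of the mitochondrial genome, so the mitochondrial transcripts were not analysed here.

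**Figure D2:**
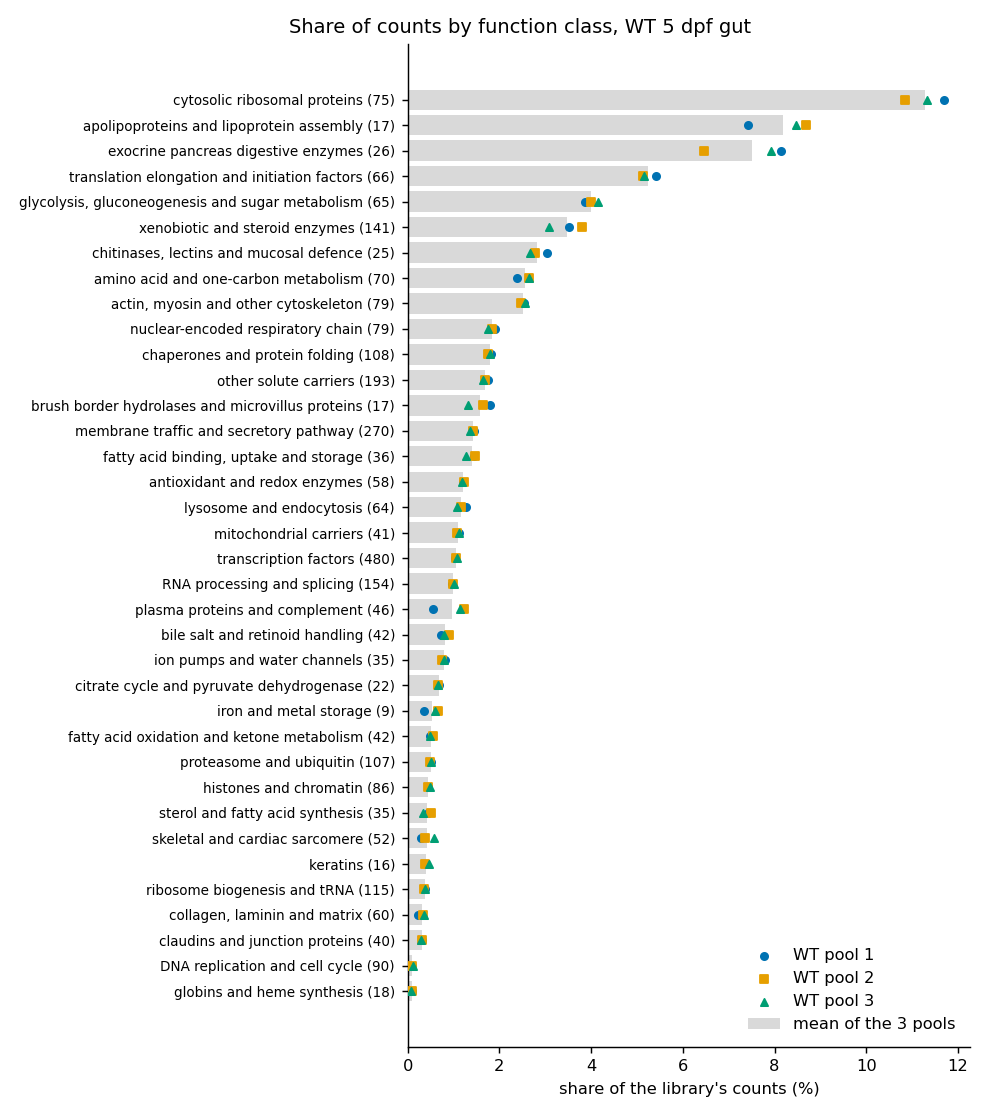
Share of each library's counts (%) by function class, with the bar at the mean of the 3 WT pools, 1 point per pool and the number of member genes in brackets. Ribosomal proteins lead at 11.7%, 10.9% and 11.3%, and the plasma proteins are lower in pool 1, at 0.549%, than in pools 2 and 3, at 1.24% and 1.14%.

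The label of the tissue was checked against markers of the cell types that a dissected gut can hold. In bulk samples, fewer cells of a type and less RNA per cell cannot be told apart. Absorptive cells were plainly present: the 8 pan-enterocyte markers found summed to 12761, 11683 and 8713 CPM in pools 1, 2 and 3, and the 13 markers of lipid-absorbing anterior enterocytes to 56743, 52264 and 48923 CPM. Lysosome-rich enterocyte markers summed to 7242, 6062 and 5243 CPM, led by the protease ctsl.1 at 3815, 2966 and 2519 CPM. These 3 enterocyte lists, and the ileocyte list given below, ran in the same order over the pools, highest in pool 1 and lowest in pool 3. Pool 3 was the lowest pool for the largest share of all members averaging at least 10 CPM as well.

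The lists of the secretory epithelium and the wall of the gut gave lower sums than the pan-enterocyte, lipid-absorbing and lysosome-rich lists. The lists held unequal numbers of matched markers, so their sums do not compare amounts of cells. Enteroendocrine markers summed to 391, 428 and 443 CPM in pools 1, 2 and 3. This list shares gcga, gcgb, sst1.1 and sst2 with the endocrine pancreas list, and without these 4 genes it summed to 304, 283 and 271 CPM, the opposite order over the pools. Most of this fall from pool 1 to pool 3 lay in the unshared opioid precursor penka, at 98.6, 80.7 and 68.4 CPM, so it was not an order of the list as a whole. Of the other unshared genes, vipb had 47.9, 49.4 and 49.8 CPM and the peptide YY gene pyyb had 45.6, 42.1 and 41.5 CPM. Goblet cells rested mainly on agr2, which folds mucins, at 81.1, 67.3 and 59.7 CPM, because 10 of their 13 listed symbols were not matched. The intelectin gene itln3 went the other way, at 7.95, 17.3 and 14.5 CPM. Enteric neuron and glia markers were among the steadiest lists, at 226, 223 and 239 CPM, with hand2 at 43.7, 44.9 and 48.5 CPM, ret at 26.8, 25.7 and 24.9 CPM and nos1, the neuronal nitric oxide synthase, at 19.2, 19.8 and 22 CPM. Smooth muscle markers summed to 2375, 2539 and 2534 CPM, of which acta2 (smooth muscle actin) had 1148, 1303 and 1319 CPM and tagln 351, 350 and 364 CPM. Dividing cells were represented by pcna at 55.1, 59.22 and 80.9 CPM and mki67 at 14.1, 17.5 and 19.8 CPM.

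Ileocyte markers, of the cells that take back bile salts, summed to 2965, 2456 and 2151 CPM in pools 1, 2 and 3, nearly all of it fabp6, while the bile salt transporters slc51a and slc10a2 had 83.8, 120 and 90.2 CPM and 106, 97.0 and 88.4 CPM. Tuft cell markers, led by avil and trpm5, summed to 8.3, 7.1 and 9.4 CPM, and of the Best4 cell list, of which 3 of 5 symbols were not matched, sctr, the secretin receptor, had 9.2, 7.7 and 8.4 CPM. Progenitor and Notch genes summed to 294, 292 and 293 CPM, an even sum that rested on lgr4 (154, 140 and 135 CPM), since the other genes summed to 140, 152 and 158 CPM, with notch2 at 35, 36.9 and 40.0 CPM and sox9b at 10.0, 11.9 and 13.3 CPM. Endothelial markers summed to 174, 199 and 195 CPM, with kdrl, a receptor for vascular growth factor, at 39.1, 49.7 and 43.0 CPM. Fibroblast and mesenchyme markers summed to 367, 472 and 475 CPM, led by the collagens col1a1b and col1a2. Endothelial and mesenchymal sums were thus both lowest in pool 1.

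Claudins and other junction genes took 0.312%, 0.305% and 0.289% of counts in pools 1, 2 and 3, with the cadherin cdh17 at 1032, 964 and 799 CPM and the gut claudin cldn15la at 544, 508 and 449 CPM. Actin and other cytoskeletal genes took 2.53%, 2.48% and 2.55%. Of the pumps, atp1a1a.4, a sodium pump subunit, had 4140, 3412 and 3286 CPM, and of the mitochondrial carriers slc25a5, which exchanges ADP for ATP, had 8349, 7540 and 7719 CPM. Lysosome and endocytosis genes took 1.27%, 1.17% and 1.07%, in the same order over the pools as the enterocyte markers. This class shares its highest genes, ctsl.1 and lgmn, with the lysosome-rich enterocyte list, so its order is not separate from that list. A ratio of at least 1.5 was reached by 2 of 21 junction genes, 1 of 61 cytoskeletal genes and 4 of 52 lysosomal genes with a mean of at least 10 CPM. It was reached by 2 of 25 exocrine pancreas genes, 5 of 16 brush border genes and 36 of 38 plasma protein genes, where 8.13% of all such members reached it.

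Of 65 gut transcription factors found, 62 were members and 48 averaged at least 10 CPM, and 2 of these 48 reached a ratio of 1.5, where 8.13% of all such members did. xbp1, a regulator of secretory capacity, had 319, 276 and 269 CPM in pools 1, 2 and 3. The endodermal factors gata6 and gata5 had 196, 200 and 214 CPM and 135, 135 and 138 CPM, and the intestinal factor cdx1b had 136, 118 and 120 CPM. Of the HNF4 family, hnf4g had 87.1, 85.5 and 83.2 CPM and hnf4b 69.7, 63.5 and 64.8 CPM, while hnf4a had 1.22, 1.14 and 1.17 CPM. Whether reads of hnf4a were lost in counting was not tested, so its value was not read as low expression.

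Counts of immune genes were sparse, which was not read as absence of the cells. The 20 lymphoid markers found summed to 13.7, 13.5 and 17.4 CPM in pools 1, 2 and 3, with gata3, a factor that the kidney, ear and nervous system also use, at 6.20, 7.19 and 8.49 CPM. Of these 20 markers, 6 had 0 counts in every pool, among them lck and cd8a. The neutrophil list held cpa5, which ranked here with the pancreatic enzymes; without it the list summed to 30.5, 41.6 and 44.8 CPM, with mpx (myeloperoxidase) at 2.4, 2.0 and 3.0 CPM. Among macrophage markers, grn1, a granulin, had 60.6, 53.6 and 53.8 CPM and the other 11 together had 16.3, 15.3 and 19.6 CPM, with 4 of them at 0 counts in every pool. Of 18 listed symbols of the IL-10 family and its receptors, 14 were found. Among the ligands, il22 had 7, 7 and 3 counts and il10 had 1, 0 and 0 counts. The receptor chains that in humans form the receptor of IL-26 were members: il10rb had 77.5, 69.2 and 77.6 CPM and il20ra had 55.5, 51.9 and 43.6 CPM. The ligands il26, il22 and il10 were thus at or near 0 counts, whereas these receptor chains were counted in every pool. Whether reads of the ligands were lost in counting was not tested, so this is not a comparison of true levels.

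Markers of head tissues and yolk were at or near 0. Lens and retina markers summed to 0.9, 0.8 and 0.7 CPM in pools 1, 2 and 3, brain markers to 1.3, 2.1 and 1.2 CPM and vitellogenins to 1.4, 1.2 and 1.8 CPM. Skeletal muscle, which lies next to the gut, summed to 2080, 2764 and 4860 CPM, and hepatocyte markers to 10812, 23628 and 20851 CPM. Epidermis markers summed to 1228, 1022 and 1351 CPM, or 383, 304 and 521 CPM without krt4, which is found in gut as well as skin. Kidney tubule markers summed to 399, 371 and 317 CPM and swim bladder markers to 40.0, 65.7 and 44.0 CPM. Cardiac muscle markers summed to 26.7, 50.2 and 51.2 CPM and pigment cell markers to 9.5, 12.7 and 14.2 CPM. Whether these counts came from such tissues or from gut cells was not tested. The libraries labelled gut thus held RNA of intestine with that of liver, pancreas, skeletal muscle and skin markers, and other neighbouring tissues were not excluded.

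Several genes that mark abundant cell types had few or no counts, so a low value was not read as absence. fabp2, a classic enterocyte marker, had 9, 2 and 10 counts in pools 1, 2 and 3 beside 3225, 2957 and 2351 CPM of its relative fabp1b.1. The epithelial marker epcam, the insulin gene ins, the macrophage gene mpeg1.1, the cell cycle kinase cdk1 and the globin hbba1 were listed at 0 in all pools. The muscle genes mylpfa and ckma had 1 count each over the 3 pools, while their partners mylz3 and ckmb had 166, 208 and 328 CPM and 147, 151 and 349 CPM. The annotation used for counting, its strand setting and its treatment of multi-mapping reads were not given in the sources used here, and their part in these values was not tested. The same limit makes the values of close paralogs uncertain, among them prss59.1 and prss59.2, the cela1 and apoa4b copies, the keratins and the myhz genes.

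Across the 3 pools, most of the transcriptome was level. Pairs of pools correlated at Pearson's r of 0.991, 0.987 and 0.991 on log2 CPM (pools 1 and 2, 1 and 3, 2 and 3; across 10813 genes, which share the same libraries and are not replicates). Of the 100 highest genes of each pool, 94 were shared by all 3. The median SD of log2 CPM was 0.13, and the common biological coefficient of variation, the relative spread between pools beyond counting error, was 14%. The spread over the 3 pools together was larger than counting allows. The median variance was 3.28 times the Poisson value for genes between 10 and 100 CPM and 236 times for genes above 1000 CPM. Among the 500 highest genes, the steadiest was tpi1b, a triose phosphate isomerase, at 610, 625 and 619 CPM in pools 1, 2 and 3 (618 ± 7.35, SD, n = 3).

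A ratio of the highest to the lowest pool of at least 1.5 was reached by 16.5% of all members and by 8.13% of the 6138 that averaged at least 10 CPM, or 499 genes. These ratios describe the 3 pools and were not tested. At any ratio, pool 1 was lowest for 31.2% and pool 2 for 26.1% of the 6138, and pool 3 was lowest for the rest, the largest share. At a ratio of at least 1.5, pool 1 was lowest for 319 of the 499 genes (5.2% of the 6138), pool 3 for 150 (2.44%) and pool 2 for 30 (0.489%). Pool 2 was highest for 273 (4.45%) and pool 3 for 146 (2.38%). With plain library totals in place of TMM scaling, pool 3 was lowest for 104 and highest for 198 genes, so the balance of low and high genes in pool 3 depended on the scaling.

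**Figure D3:**
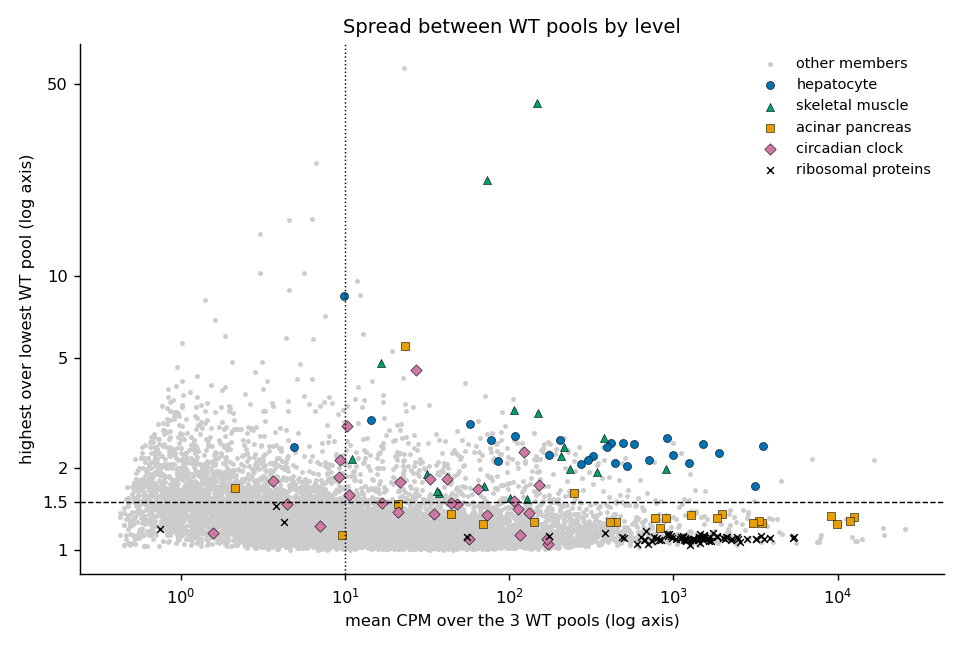
Ratio of the highest to the lowest WT pool against mean CPM over the pools (both axes log), 1 point per member gene, with marker lists and ribosomal proteins coloured; the dashed line marks a ratio of 1.5 and the dotted line 10 CPM. Hepatocyte and skeletal muscle genes lie above the dashed line, acinar genes mostly below it and the 72 ribosomal protein genes right of the dotted line all below it.

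Liver genes set pool 1 apart. All 24 hepatocyte markers with a mean of at least 10 CPM were lowest in pool 1 with a ratio of at least 1.5, where 5.2% of all such members were, and their median ratio was 2.32 against 1.15 over all 6138. tfa, the iron carrier transferrin, had 1939 CPM in pool 1 against 4650 and 3962 CPM in pools 2 and 3. fabp10a, the liver fatty acid binding protein, had 842 against 2057 and 1673 CPM, and fga, a fibrinogen chain, had 303 against 737 and 698 CPM. The retinol carrier rbp4 showed the smallest ratio of the list, 1.72, with 2182 against 3744 and 3525 CPM. The plasma protein and complement class shares genes with this list, among them its highest members serpina1, a2ml and serpina1l, and so adds little that is separate. In that class, 36 of the 38 genes were lowest in pool 1 at this ratio. The matrix gene fn1b, a fibronectin that the liver also secretes into plasma, had 814 against 1548 and 1443 CPM. Islet hormones were lowest in pool 1 as well, with the somatostatin gene sst2 at 8.19, 25 and 34.8 CPM and the glucagon gene gcga at 49.5, 73.4 and 78.0 CPM in pools 1, 2 and 3.

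Acinar genes were mostly lowest in pool 2. Of the 21 acinar markers with a mean of at least 10 CPM, 19 were lowest in pool 2, where 26.1% of all such members were, and 2 reached a ratio of 1.5, near the 8.13% of all such members. The list summed to 69433, 53835 and 63467 CPM in pools 1, 2 and 3. cela1.3 alone had a large ratio, 5.53, with 46.5, 8.41 and 14.9 CPM, and it is a close copy of other elastases. The liver and the acinar pancreas thus differed over the pools in opposite order, and the ratio of the hepatocyte to the acinar sum within a library was 0.156, 0.439 and 0.329.

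Muscle, skin and fin genes were mostly highest in pool 3. All 19 skeletal muscle markers with a mean of at least 10 CPM had a ratio of at least 1.5. Of these, 17 were highest in pool 3 and 18 were lowest in pool 1, so the muscle genes differed at both ends. Of all such members, 8.13% had that ratio, 2.38% had it with pool 3 highest and 5.2% had it with pool 1 lowest. myhz1.1 and myhz1.2, fast myosin heavy chains, had 8.23, 84.8 and 352 CPM and 6.81, 60.0 and 153 CPM in pools 1, 2 and 3. actc1b, an actin of striated muscle, had 640, 796 and 1261 CPM, and the calcium pump atp2a1 had 238, 295 and 609 CPM. The largest ratio of any gene at this level, 57.3, was that of and2, an actinodin of the larval fin fold, with 4.54, 1.11 and 63.4 CPM, and and1 followed with 3.97, 2.99 and 28.6 CPM. The keratins cyt1 (51.7, 35 and 127 CPM) and krtt1c19e (23.6, 17 and 57.4 CPM), found in larval skin, were also highest in pool 3, whereas krt4, found in gut as well as skin, had 844, 717 and 830 CPM. Globins were highest there too, with hbae3 at 27.3, 39.5 and 52.5 CPM. How much body wall each dissection retained was not recorded in the sources used here, and its part in these values was not tested.

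Enterocyte and sterol genes ran the other way, lowest in pool 3. In the brush border class, 4 of 16 genes with a mean of at least 10 CPM were lowest in pool 3 with a ratio of 1.5 or more, where 2.44% of all such members were; the largest was that of mep1a.1, a meprin protease, at 789, 646 and 439 CPM in pools 1, 2 and 3. In sterol and fatty acid synthesis, 13 of 26 genes were lowest in pool 3 at this ratio, and 12 of those were highest in pool 2. Of all 6138 such members, 150 were lowest in pool 3 at this ratio, and 75 of those were highest in pool 2. fdps, which makes farnesyl diphosphate for the sterol path, had 121, 168 and 68.2 CPM, hmgcs1, at the start of the path, had 322, 470 and 230 CPM, sqlea, which makes squalene epoxide, had 117, 134 and 62.2 CPM, and cyp51 had 814, 903 and 591 CPM. srebf2, the transcription factor that drives this path, had 174, 172 and 157 CPM, a ratio of 1.11. Its part in the values of the sterol genes was not tested. Xenobiotic enzymes shared the low pool, with 18 of 99 genes lowest in pool 3 at this ratio, among them gstp2, a glutathione transferase, at 190, 264 and 117 CPM, and the efflux pump abcc2 at 1394, 1422 and 937 CPM.

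**Figure D4:**
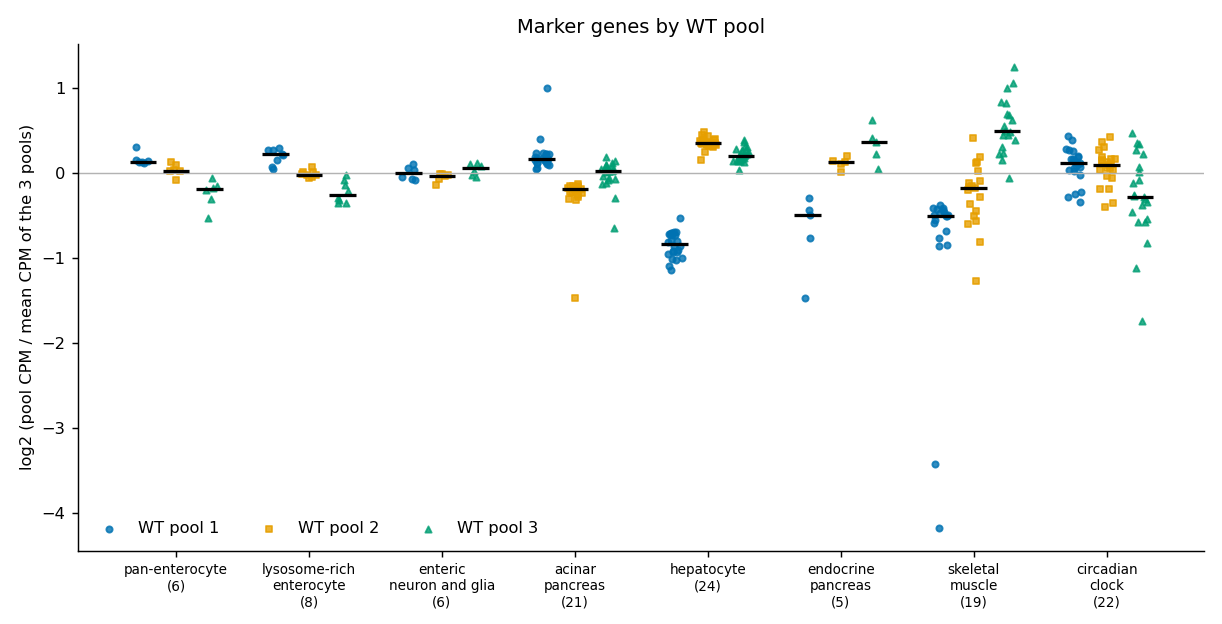
log2 of each pool's CPM over the mean of the 3 WT pools, 1 point per marker gene with a mean of at least 10 CPM (number in brackets) and a bar at the median. Hepatocyte markers are all below 0 in pool 1, most acinar markers are lowest in pool 2, and most skeletal muscle markers are highest in pool 3 while pan-enterocyte markers are mostly lowest there.

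The same genes also varied among the il26KO pools. Of the 499 genes with a ratio of at least 1.5 in WT, 249 or 49.9% reached it among the il26KO pools, with a median ratio of 1.88 in WT and 1.5 in il26KO. Of the 5639 genes below 1.5 in WT, 175 or 3.1% reached it in il26KO, with a median ratio of 1.14 in both. The hepatocyte sum was 10812, 23628 and 20851 CPM in the WT pools and 16486, 12436 and 16900 CPM in the il26KO pools. The acinar sum was 69433, 53835 and 63467 CPM in WT and 43347, 67976 and 69197 CPM in il26KO, and the skeletal muscle sum was 2080, 2764 and 4860 CPM in WT and 4295, 2408 and 3547 CPM in il26KO. For these 3 lists the ranges of the groups overlapped. and2 was likewise uneven in both, with 4.54, 1.11 and 63.4 CPM in the WT pools and 0.5, 25.1 and 4.9 CPM in the il26KO pools. Enteric neuron and glia markers stayed level in both, at 226, 223 and 239 CPM in WT and 233, 237 and 229 CPM in il26KO. Of the 38 lists, only that of lipid-absorbing anterior enterocytes had ranges that did not overlap between the groups. Its markers summed to 56743, 52264 and 48923 CPM in WT and to 59739, 57602 and 57632 CPM in il26KO. Among the genes of this list, only pck1 had ranges that did not overlap. It had 5687, 5692 and 5373 CPM in WT and 7923, 6664 and 7371 CPM in il26KO. The share of all genes with ranges that did not overlap was not counted, so this was not read as a difference in these cells. Each group was scaled within itself, and no difference between the groups was tested.

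**Figure D5:**
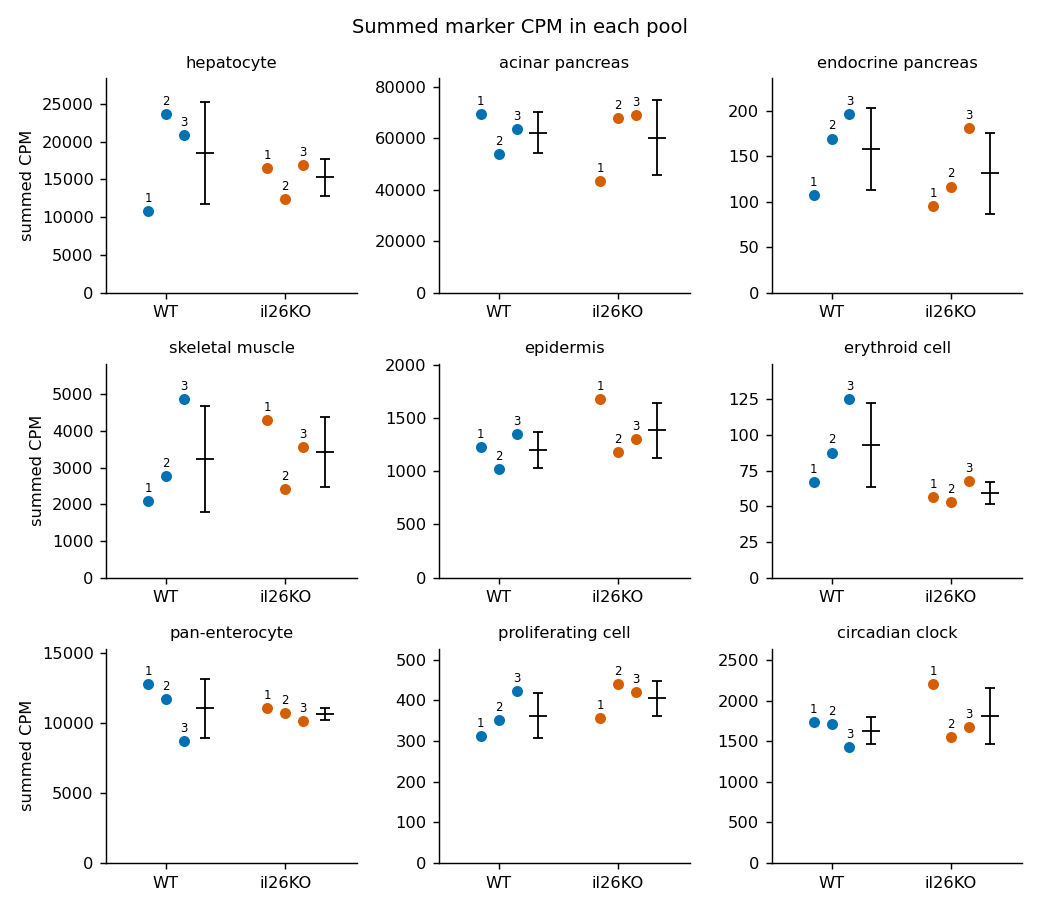
Summed CPM of 9 marker lists in each pool, WT left and il26KO right, with the replicate number above each point and the mean ± SD (n = 3) as a bar; each group was scaled within itself. The hepatocyte sum spans 10812 to 23628 CPM in WT and 12436 to 16900 CPM in il26KO. The ranges of the groups overlap in all 9 panels, which are a choice from the 38 lists. Of the 38, only the lipid-absorbing anterior enterocyte list, not drawn here, has ranges that do not overlap. Among its genes this holds for pck1 alone, and the share over all genes was not counted.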

How the data were processed

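RNA was extracted from pools of 10 to 15 dissected guts, and stranded, poly(A)-selected libraries were sequenced with paired-end reads of 100 bp. Per the labels, reads were checked with FastQC 0.11.8 and aligned to danRer11. The authors deposited whole-number counts for each gene symbol, without normalization. The aligner, the counter and the annotation were not given in the sources used here. The table held 0 other columns of per-sample values.

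Groups came from the sample titles. The members were genes with at least 10 counts in each WT library. The members, gene lists and classes were chosen with earlier results of these data known. Counts were scaled with TMM in edgeR 4.0.16 (R 4.3.3), within WT and within il26KO, and CPM was count over scaled library size. The SD of log2 CPM used a prior count of 2, and the common biological coefficient of variation came from estimateDisp with an intercept alone. No test was run, since the design holds a single group. The steps were tested on simulated data. Named genes were the 30 with the highest mean CPM, the 3 highest of each class and list with listed members at 0, up to 24 with the largest ratio between pools, and those at the limit of 10 counts. Other named genes were chosen after their values were seen, and some genes that the rule names are not reported here. Classes were assigned by gene symbol. Of 682 list symbols, 596 were found in the table, 24 of them through a RefSeq or older synonym (GRCz12tu table, names only). Alternatives were other count limits, scalings, ratios and prior counts, and each WT pool left out in turn. The scaling of the calls by pool and the enteroendocrine sum without shared genes were added after seeing the data.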

Additional observations from a re-analysis of the deposited data

How the results depend on the processing

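Without a test, the limits are those of 3 pools. The share of members with a highest over lowest pool of at least 1.5 was 16.5% and moved with every choice except RLE size factors: 13.6% with at least 20 counts in each WT library, 30.4% with every gene counted in WT, 17.6% with library totals alone, 39.6% at the lower ratio limit tried, 5.38% at a ratio of 2 and 8.13% for members averaging at least 10 CPM. With 1 WT pool left out, so that only a pair remained, it was between 7.48% and 11.3%. The number of members was between 9095 (at least 50 counts in each pool) and 12297 (at least 1 count in each). The shares of the 10 and 100 highest genes and of the ribosomal proteins, the number of genes holding 50% of counts, the 94 shared genes, the median SD and the coefficient of variation (12.8% to 16.4%) stayed within the spread of the pools or within 1.5 times under all alternatives run. Leaving out its highest member moved the sum of 35 of 38 lists by more than 1 SD of the pools. No paired analysis was possible because a single group was described and no result came from a test. Levels per kilobase of coding length were not run, since no transcript lengths were used here. Depth limited genes below 1 CPM, where the median spread between pools (22.6%) was no larger than counting error (23.1%).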

Other observations

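Clock genes formed a further group in which pool 3 stood apart. Of 22 circadian clock genes with a mean of at least 10 CPM, 10 had a ratio of at least 1.5 between WT pools (8.13% of all such members did). Of these, 7 were lowest and 3 highest in pool 3, where 2.44% and 2.38% of all such members were at this ratio. per1a, a repressor of the clock, had 36.6, 36.3 and 8.07 CPM in pools 1, 2 and 3, nr1d1, a nuclear receptor that represses the activating arm, had 141, 158 and 69.4 CPM, and tefa, a clock output factor, had 182, 171 and 105 CPM. cry3a had 91.0, 94.4 and 138 CPM and cry3b 17.9, 17.1 and 30.2 CPM, so that genes of the 2 courses differed in opposite directions while pools 1 and 2 were nearly equal. Among the il26KO pools, per1a had 52.0, 18.1 and 16 CPM and nr1d1 324, 133 and 161 CPM. The time of day of each dissection was not given in the sources used here, and its part in these values was not tested.

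Of 6 listed symbols of bile acid synthesis and hepatic transport, 3 were found. The 2 of these that averaged at least 10 CPM, cyp7a1 and cyp8b1, did not share the order of the other liver genes. cyp7a1, the rate-limiting enzyme of bile acid synthesis, had 469, 326 and 676 CPM in WT pools 1, 2 and 3, and cyp8b1, which acts later in the same path, had 312, 252 and 368 CPM, both lowest in pool 2, where the hepatocyte sum was highest. The ratio of cyp7a1 to fabp10a within a library was 0.557, 0.158 and 0.404. In the il26KO pools cyp7a1 had 366, 796 and 673 CPM and cyp8b1 184, 392 and 304 CPM. The hepatocyte sums there were 16486, 12436 and 16900 CPM, so both enzymes were again out of step with the hepatocyte list. nr0b2a, a repressor of cyp7a1 in mammals, was picked after its values were seen and had 94.8, 122.98 and 48.7 CPM in the WT pools. Its part in the cyp7a1 values was not tested. These are 3 pools of each genotype and no test was run.

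Immediate early and stress genes were lowest in pool 1. Of 22 with a mean of at least 10 CPM, 18 were lowest there, where 31.2% of all such members were, and 5 of them had a ratio of at least 1.5, where 5.2% did, among them fosab, at 11, 21.9 and 15.5 CPM in WT pools 1, 2 and 3, and socs3a, at 15.6, 31.6 and 25.4 CPM.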
